A study of Mus musculus with 9 samples.

Results

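The 44 genes described here are the collagen genes, chosen as the rows of the count table whose symbol reads Col, a number, a, and a number, such as Col1a1. They are 44 of 40879 gene symbols, and they divide into 11 fibrillar collagens, 8 basement membrane collagens and 25 others. Expression was measured by 3′ mRNA sequencing of whole spinal cord from wild-type (WT) mice, in 9 libraries. The 3 naive libraries came from mice without disease. The 3 vehicle libraries and the 3 GV1001 libraries came from mice with experimental autoimmune encephalomyelitis (EAE), in which immunity to myelin inflames the cord, and GV1001 is a peptide derived from telomerase. Strain, sex, age, dose, disease score and day of sampling are not given in the sources used here, nor is whether the 3 libraries of a group came from separate animals, so the p-values measure only the spread between these samples, which may be technical.

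Collagens are secreted or membrane proteins in which 3 chains wind into a triple helix. Fibrillar collagens assemble into the fibres of connective tissue. In the central nervous system they are made mainly by fibroblasts of the meninges and of the perivascular space, and fibroblast scars form around inflamed vessels. Type IV collagen is the sheet-forming scaffold of basement membranes, which surround the vessels of the cord and underlie the surface formed by astrocyte endfeet. The remaining types decorate fibres, form beaded filaments or hexagonal nets, or span the cell membrane, and some are made by neurons and glia. In whole tissue, more cells of a type and more RNA per cell cannot be told apart.

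Total counts ranged from 5247246 to 6174870, and collagens took 0.0644% to 0.149% of them. Levels are given in CPM, counts scaled to a common library total, and 3 counts in a library, the upper limit that a count of 0 allows, correspond to 0.486 to 0.572 CPM. Reads of a 3′ library come from transcript ends, so CPM was set between genes without division by length. All 13 markers of spinal cord identity were detected, with a summed level of 14300 to 20600 CPM. Skeletal muscle markers summed to 5100, 1380 and 493 CPM in the GV1001 libraries and to at most 603 CPM in the others, erythrocyte markers to 4860 CPM in vehicle replicate 2 and to at most 720 CPM elsewhere, and microglia and macrophage markers to 6840, 864 and 2280 CPM in the vehicle libraries against 296 to 354 CPM in naive libraries.

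Collagen transcripts were on average more abundant in both EAE groups than in naive cord, and the naive and vehicle ranges overlapped. The 11 fibrillar collagens summed to 374, 639 and 377 CPM in the naive libraries, 698, 401 and 1010 CPM in the vehicle libraries, and 584, 901 and 648 CPM in the GV1001 libraries. Naive replicate 2 lay above vehicle replicate 2 and GV1001 replicate 1. The group means were 464 ± 152, 704 ± 306 and 711 ± 168 CPM (SD, n = 3). The 8 basement membrane collagens summed to 94.1, 111 and 107 CPM in naive, 166, 106 and 199 CPM in vehicle, and 130, 193 and 165 CPM in GV1001 libraries. Here all 3 GV1001 libraries lay above all naive libraries, whereas vehicle replicate 2 lay within the naive range. The means were 104 ± 8.71, 157 ± 46.8 and 162 ± 31.2 CPM. The 25 other collagens summed to 196 ± 20.8, 245 ± 38.4 and 252 ± 31 CPM. The ratio of means of vehicle to naive was thus 1.52 for fibrillar, 1.51 for basement membrane and 1.25 for other collagens, and the ratio of GV1001 to vehicle was 1.01, 1.04 and 1.03.

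**Figure D1:**
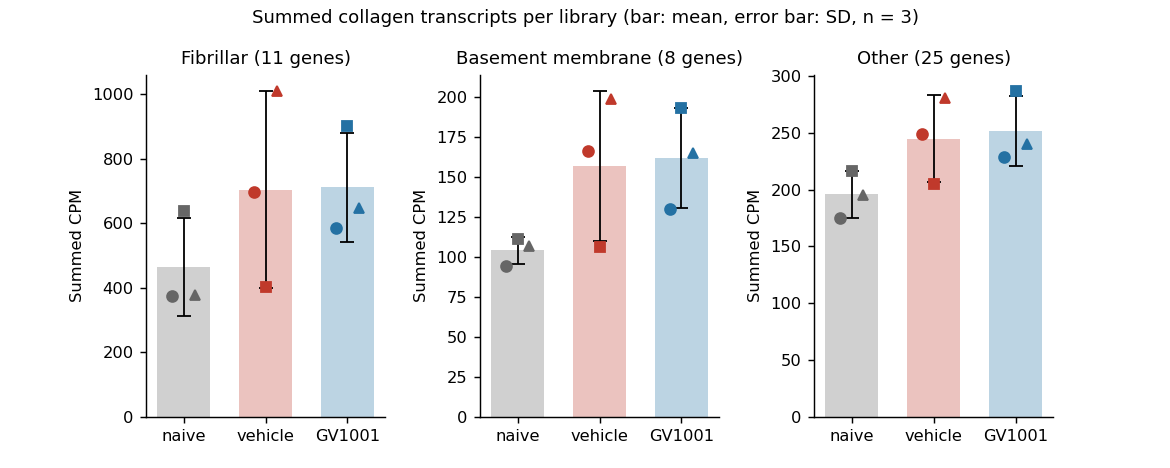
Summed CPM of the fibrillar, basement membrane and other collagens in each of the 9 libraries (points, shaped by replicate), with the group mean (bar) and SD (error bar, n = 3). Vehicle replicate 2 sits at 401, 106 and 205 CPM, below the other EAE libraries in all 3 panels.

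Type I and type III collagens, the main fibre-forming collagens of fibroblasts, made up most of the fibrillar total. Col1a2, the α2 chain of type I collagen, took 44.9% of the fibrillar counts over all libraries, Col1a1, its α1 chain, 20.8%, and Col3a1, the sole chain of type III collagen, 10.6%. Col1a1 was at 59.3, 141 and 67.7 CPM in naive, 175, 56.4 and 221 CPM in vehicle, and 116, 210 and 125 CPM in GV1001 libraries. Col1a2 was at 156, 279 and 167 CPM, then 282, 180 and 493 CPM, then 267, 403 and 301 CPM. Both genes therefore overlapped between all 3 groups, with a high naive replicate 2 and a low vehicle replicate 2. Col3a1 was at 23, 62.1 and 25.4 CPM in naive, 96.1, 26.5 and 137 CPM in vehicle, and 47.6, 119 and 59.8 CPM in GV1001 libraries. Its highest vehicle library exceeded its lowest 5.17-fold, against 2.7-fold among naive and 2.5-fold among GV1001 libraries. In vehicle against naive, the log2 fold change was 0.73 ± 0.46 (SE) for Col1a1, 0.63 ± 0.33 for Col1a2 and 1.20 ± 0.56 for Col3a1, with an adjusted p of 0.425, 0.326 and 0.271 (edgeR's quasi-likelihood test with Benjamini-Hochberg adjustment).

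The ratio between chains can be read within each library. Counts of Col1a2 were 1.61 to 3.2 times those of Col1a1 over the 9 libraries. Col3a1 was at 0.376 to 0.442 of Col1a1 in naive libraries, 0.549, 0.47 and 0.619 in vehicle libraries, and 0.41, 0.567 and 0.478 in GV1001 libraries. The 3 highest of these ratios were in vehicle replicates 1 and 3 and GV1001 replicate 2. The promoters of Col1a2 and Col3a1 are shown because these genes are among the most abundant fibrillar members. They are RefSeq windows on GRCm38.p6, an earlier build than the GRCm39 of the counts, from 250 bases before to 50 bases after the annotated start. Capitals mark, on either strand, the letters CCAAT, the letters GGGCGG (known as the GC box) and the letters TATAAA, which do not overlap each other here.
Col1a2, chr6:4505368-4505667, + strand: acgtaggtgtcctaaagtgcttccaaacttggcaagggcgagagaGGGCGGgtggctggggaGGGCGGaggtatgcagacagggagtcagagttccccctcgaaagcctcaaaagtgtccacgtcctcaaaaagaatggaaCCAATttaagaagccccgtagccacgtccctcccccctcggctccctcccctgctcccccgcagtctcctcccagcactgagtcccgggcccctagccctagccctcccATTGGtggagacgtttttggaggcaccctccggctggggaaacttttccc
Col3a1, chr1:45311288-45311587, + strand: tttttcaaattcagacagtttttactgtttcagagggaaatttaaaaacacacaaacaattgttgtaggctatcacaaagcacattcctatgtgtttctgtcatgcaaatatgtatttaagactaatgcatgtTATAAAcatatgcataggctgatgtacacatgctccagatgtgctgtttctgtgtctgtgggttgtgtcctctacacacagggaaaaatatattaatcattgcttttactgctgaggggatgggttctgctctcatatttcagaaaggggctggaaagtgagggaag
The Col1a2 window held 2 CCAAT and 2 GGGCGG matches, and the Col3a1 window held 1 TATAAA and neither of the others. Of 32851 RefSeq promoter windows of this length, 37.4% held CCAAT, 35.7% GGGCGG and 13.6% TATAAA on at least 1 strand. Of the 44 collagens, 35 had a window, and 13, 22 and 5 of these held the respective letters.

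The minor fibrillar collagens fell into a part that was higher in EAE on average and a part that was not. Type V collagen starts and sets the width of type I fibres. Col5a1 was at 8.91, 18.6 and 7.58 CPM in naive, 15.6, 8.77 and 22 CPM in vehicle, and 12.3, 20.6 and 17.3 CPM in GV1001 libraries. Col5a2 was at 8.02, 13.8 and 9.2 CPM in naive, 18.7, 7.05 and 21.1 CPM in vehicle, and 12.7, 24.3 and 18.3 CPM in GV1001 libraries. Both genes overlapped between all groups, and vehicle replicate 2 was the lowest vehicle library for each. Col5a3, the third type V chain, was at 8.73, 8.46 and 7.58 CPM in naive, 18.3, 13.1 and 13.2 CPM in vehicle, and 9.07, 15 and 13.1 CPM in GV1001 libraries. Every EAE library lay above every naive library for Col5a3. The same held for Col27a1, a fibrillar collagen known from cartilage, at 15, 20.9 and 17 CPM in naive, 26.6, 22.1 and 32.4 CPM in vehicle, and 21.3, 25.6 and 24.8 CPM in GV1001 libraries. The log2 fold change in vehicle against naive was 0.82 ± 0.25 for Col5a3 and 0.59 ± 0.18 for Col27a1, with an adjusted p of 0.105 and 0.113 in edgeR. Type XI collagen, which sits inside cartilage fibres, had levels near those of naive cord. Col11a1 was at 62, 51.4 and 49.1 CPM in naive, 37.9, 55.6 and 50.4 CPM in vehicle, and 64, 48 and 54.1 CPM in GV1001 libraries. Col11a2 was at 23.5, 37.8 and 21.8 CPM in naive, 23.9, 25.5 and 17.4 CPM in vehicle, and 26.3, 30.1 and 29 CPM in GV1001 libraries. The vehicle and naive ranges overlapped for both. Their log2 fold changes in vehicle against naive were −0.21 ± 0.16 and −0.35 ± 0.22. Col2a1, the main collagen of cartilage, was at 1.41 to 8.37 CPM, with its highest value in naive replicate 1, and Col24a1 was at 0.898 to 3.7 CPM.

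**Figure D2:**
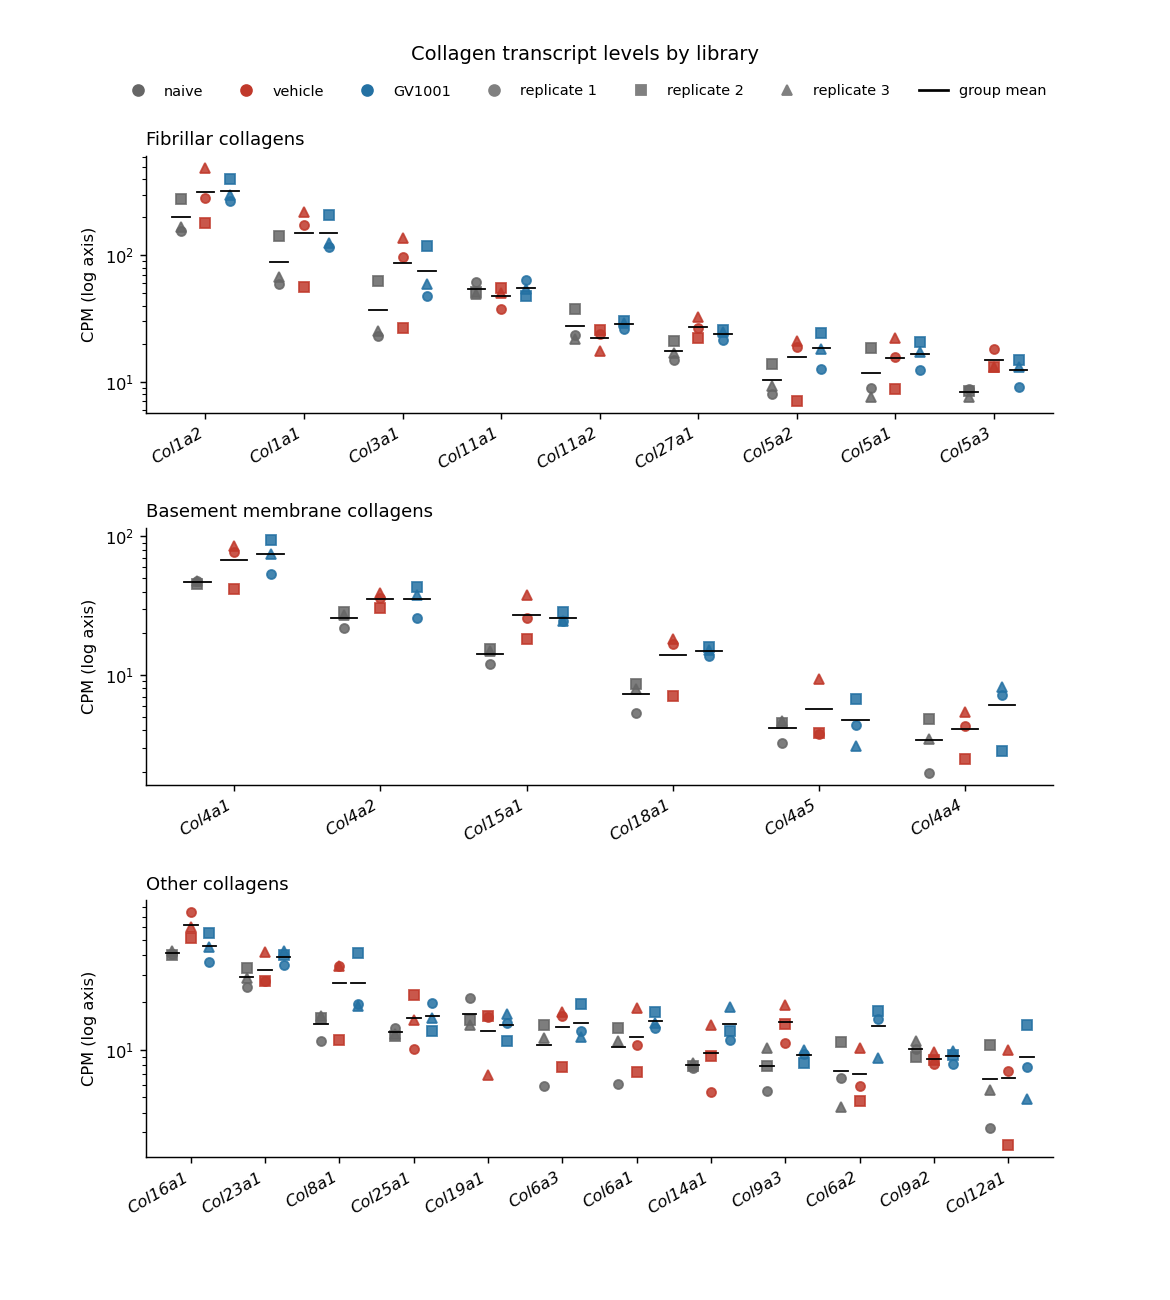
CPM (log axis) of the 27 collagens at 5 CPM or more in at least 1 group mean, for each of 9 libraries (points, coloured by group and shaped by replicate) with group means (lines). Col1a1, Col1a2 and Col3a1 overlap between groups, while the EAE points of Col5a3, Col15a1 and Col27a1 lie above the naive points.

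Among basement membrane collagens, Col4a1 and Col4a2, whose chains form the common type IV network of vessels, took 44.8% and 22.8% of the counts. Col4a1 was at 47.8, 45.7 and 48 CPM in naive, 77.4, 41.5 and 84.7 CPM in vehicle, and 53.5, 94.5 and 74.7 CPM in GV1001 libraries. The naive libraries differed 1.05-fold and the vehicle libraries 2.04-fold, with vehicle replicate 2 below all naive libraries. Col4a2 was at 21.9, 28.3 and 27.2 CPM in naive, 36.1, 30.7 and 39.2 CPM in vehicle, and 25.9, 43 and 37.6 CPM in GV1001 libraries, so that all vehicle libraries were above all naive libraries. The log2 fold change in vehicle against naive was 0.50 ± 0.26 for Col4a1 and 0.42 ± 0.19 for Col4a2, with an adjusted p of 0.325 and 0.265 in edgeR. The ratio of Col4a1 to Col4a2 counts stayed between 1.35 and 2.2 over the 9 libraries. These genes lie head to head on opposite strands, with annotated starts 21 bases apart, and their windows share 78 bases. They are shown, with the same marks, because the pair starts within one shared stretch.
Col4a1, chr8:11312777-11313076, - strand: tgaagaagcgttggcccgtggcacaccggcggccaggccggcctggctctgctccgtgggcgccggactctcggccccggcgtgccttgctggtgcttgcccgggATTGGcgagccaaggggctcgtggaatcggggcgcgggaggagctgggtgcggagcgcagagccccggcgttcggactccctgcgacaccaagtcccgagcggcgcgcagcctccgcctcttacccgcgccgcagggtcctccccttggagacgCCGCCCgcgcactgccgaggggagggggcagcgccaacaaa
Col4a2, chr8:11312555-11312854, + strand: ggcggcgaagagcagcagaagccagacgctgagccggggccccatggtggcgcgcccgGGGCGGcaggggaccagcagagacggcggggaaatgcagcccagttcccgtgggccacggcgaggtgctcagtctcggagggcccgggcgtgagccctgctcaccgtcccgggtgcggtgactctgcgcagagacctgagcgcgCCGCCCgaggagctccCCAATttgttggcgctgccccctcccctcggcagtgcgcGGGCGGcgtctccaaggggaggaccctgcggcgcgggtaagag
The Col4a1 window held 1 CCAAT and 1 GGGCGG match, the Col4a2 window 1 and 3, and neither held TATAAA. Col4a5 and Col4a6 also lie head to head, with starts 1343 bases apart on the X chromosome, and Col4a6 was at 0.18 to 2.79 CPM. Col4a5 was at 3.21, 4.49 and 4.69 CPM in naive, 3.77, 3.81 and 9.41 CPM in vehicle, and 4.35, 6.7 and 3.08 CPM in GV1001 libraries. Col4a4, a chain known from kidney basement membranes, was at 1.96, 4.83 and 3.43 CPM in naive, 4.31, 2.48 and 5.4 CPM in vehicle, and 7.18, 2.82 and 8.26 CPM in GV1001 libraries. Both overlapped between all 3 groups.

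Col15a1 and Col18a1, collagens with interrupted helices that carry sugar chains and lie in basement membrane zones, had higher means in both EAE groups than in naive cord. Col15a1 was at 12.1, 15.5 and 15 CPM in naive, 25.9, 18.1 and 38 CPM in vehicle, and 24.6, 28.6 and 24.6 CPM in GV1001 libraries. No EAE library overlapped the naive libraries. On the log2 scale vehicle exceeded naive by 0.91 ± 0.24. This was the smallest p of any collagen in that comparison, with an adjusted p of 0.0855 in edgeR and 0.0167 in DESeq2. Col18a1, whose terminal fragment is endostatin, was at 5.35, 8.63 and 7.94 CPM in naive, 16.7, 7.05 and 18.3 CPM in vehicle, and 13.8, 15.9 and 15.1 CPM in GV1001 libraries. All libraries with EAE except vehicle replicate 2 were above the naive libraries. In vehicle against naive it was at 0.92 ± 0.33 on the log2 scale (adjusted p = 0.161, edgeR).

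Of the 18 other collagens tested, 12 had a log2 fold change above 0 in vehicle against naive and 15 in GV1001 against naive. Col16a1, a collagen that associates with fibres, was the most abundant of them, at 40.8, 39.9 and 42.4 CPM in naive, 74.9, 51.5 and 60.1 CPM in vehicle, and 36.3, 55 and 45 CPM in GV1001 libraries. Col9a3, a chain of type IX collagen, which coats cartilage fibres, was at 5.52, 7.94 and 10.3 CPM in naive, 11.1, 14.5 and 19.3 CPM in vehicle, and 9.45, 8.29 and 10 CPM in GV1001 libraries. For both genes the vehicle libraries lay above all naive libraries, and the GV1001 libraries overlapped the naive range. The log2 fold change in vehicle against naive was 0.57 ± 0.18 for Col16a1 and 0.89 ± 0.27 for Col9a3, with an adjusted p of 0.114 and 0.105 in edgeR. Col9a2, a partner chain in type IX collagen, was at 10.2, 8.98 and 11.4 CPM in naive, 8.08, 8.58 and 9.76 CPM in vehicle, and 8.12, 9.34 and 9.88 CPM in GV1001 libraries, with overlap between the groups. Col8a1, a short collagen of vessel walls, was at 11.4, 15.9 and 16.4 CPM in naive, 33.9, 11.6 and 33.8 CPM in vehicle, and 19.5, 41.3 and 18.9 CPM in GV1001 libraries, with a log2 fold change of 0.84 ± 0.42 and an adjusted p of 0.306 in edgeR. Vehicle replicate 2 was within the naive range of Col8a1, and the other EAE libraries were above it.

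Type VI collagen forms beaded filaments around muscle, nerve and vessels. Col6a1 was at 6.06, 13.8 and 11.4 CPM in naive, 10.8, 7.24 and 18.3 CPM in vehicle, and 13.8, 17.5 and 14.7 CPM in GV1001 libraries. Col6a3 was at 5.88, 14.3 and 11.9 CPM in naive, 16.3, 7.81 and 17.4 CPM in vehicle, and 13.2, 19.6 and 12 CPM in GV1001 libraries. Both had their lowest value in naive replicate 1. Col6a2 was at 6.59, 11.2 and 4.33 CPM in naive, 5.93, 4.76 and 10.3 CPM in vehicle, and 15.7, 17.6 and 8.91 CPM in GV1001 libraries, where GV1001 replicates 1 and 2 were the 2 highest of the 9. Col12a1 and Col14a1 bind the surface of type I fibres. Col12a1 was at 3.21, 10.7 and 5.59 CPM in naive, 7.36, 2.48 and 9.94 CPM in vehicle, and 7.75, 14.3 and 4.86 CPM in GV1001 libraries, with overlap between the groups. Col14a1 was at 7.66, 7.94 and 8.3 CPM in naive, 5.39, 9.15 and 14.3 CPM in vehicle, and 11.5, 13.2 and 18.8 CPM in GV1001 libraries, so that the GV1001 libraries were above all naive libraries. Among the membrane-spanning collagens, Col23a1 was at 24.9, 33.3 and 28.7 CPM in naive, 27.5, 27.3 and 42 CPM in vehicle, and 34.4, 40 and 42.4 CPM in GV1001 libraries, so that the GV1001 libraries were above all naive libraries. Col25a1, made by neurons, was at 13.7, 12.3 and 12.6 CPM in naive, 10.2, 22.3 and 15.5 CPM in vehicle, and 19.8, 13.2 and 15.9 CPM in GV1001 libraries. Its highest value was in vehicle replicate 2, the library that was lowest of its group for most collagens. Col19a1, which subsets of neurons make, was at 21.2, 15.4 and 14.4 CPM in naive, 16.2, 16.4 and 6.97 CPM in vehicle, and 14.9, 11.3 and 16.8 CPM in GV1001 libraries. It had its lowest value in vehicle replicate 3 (log2 fold change −0.40 ± 0.31 in vehicle against naive).

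Of the 44 collagens, 36 had enough counts to be tested, among 15351 genes. The 8 that were not tested were at 0 to 2.49 CPM. They were Col4a3, Col6a4, Col6a5, Col6a6, Col7a1, Col9a1, Col17a1 and Col10a1, a collagen of growth plate cartilage that had no count in any library, which allows up to 0.572 CPM. The 9 tested collagens under 5 CPM in every group mean were at 0.18 to 8.37 CPM, and their totals over the 9 libraries were 73 to 208 counts. A gene with counts in 1 group alone can pass the filter, so the tested members are not a neutral sample of the 44.

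In vehicle against naive, 0 of 36 collagens passed an adjusted p of 0.05 in edgeR, where 0.0195% of all tested genes passed, each of them higher. DESeq2, run without the filter, called 1 collagen as higher, Col15a1, against 4.84% of all genes with an adjusted p there, and limma-voom called 0. At an unadjusted p under 0.05 there were 6 of 36 collagens, or 16.7%, against 19.3% of all tested genes. All 6 were higher, against 11.3% of all tested genes in that direction, and 0 were lower, against 8.07%. The vehicle libraries lay above all naive libraries for 6 of 36 collagens, again 16.7%, against 13.6% of all tested genes, and below them for 0, against 9.5%. The 6 were Col4a2, Col5a3, Col9a3, Col15a1, Col16a1 and Col27a1. For Col4a2, Col9a3, Col15a1 and Col27a1 the gap was within counting error. Their lowest vehicle values were 30.7, 11.1, 18.1 and 22.1 CPM, and their highest naive values 28.3, 10.3, 15.5 and 20.9 CPM. The share at an unadjusted p under 0.05 and the share of collagens with all vehicle libraries above naive are both near the background. The log2 fold change was above 0 for 26 of 36 collagens, or 72.2%, against 49.5% of all tested genes, and its median was 0.40 against 0.00. By class the median was 0.57 for fibrillar, with 7 of 11 above 0, 0.50 for basement membrane, with 7 of 7, and 0.22 for other collagens, with 12 of 18. Without vehicle replicate 3 these medians were 0.20, 0.34 and −0.09, and the median of all 36 was 0.19.

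These counts depended on vehicle replicate 2, the library that was lowest of its group for 19 of the 27 collagens at 5 CPM or more. Without it, 7 of 37 tested collagens passed in edgeR, all higher, against 7.46% of all tested genes that passed in that direction. They were Col15a1 (log2 fold change 1.15 ± 0.2, adjusted p = 0.00946), Col18a1 (1.24 ± 0.23, adjusted p = 0.0114), Col27a1 (0.72 ± 0.18, 0.0319), Col16a1 (0.70 ± 0.18, 0.0329), Col4a1 (0.76 ± 0.19, 0.0342), Col3a1 (1.64 ± 0.43, 0.0387) and Col8a1 (1.20 ± 0.32, 0.0427). Col1a1 and Col1a2 were then at 1.13 and 0.92, with an adjusted p of 0.0622 and 0.0607. Without vehicle replicate 3, Col1a1, Col1a2 and Col3a1 were at 0.38, 0.20 and 0.74. Leaving out any other single library gave 0 collagens. Vehicle replicate 2 also had the lowest sum of microglia and macrophage markers among vehicle libraries, 864 CPM, and the highest sum of erythrocyte markers, and their part in the difference was not tested. With scores of muscle and Schwann cell markers as covariates, 1 collagen passed, Col15a1 at 0.95 ± 0.23 with an adjusted p of 0.0459, against 4.75% of all tested genes that passed as higher.

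**Figure D3:**
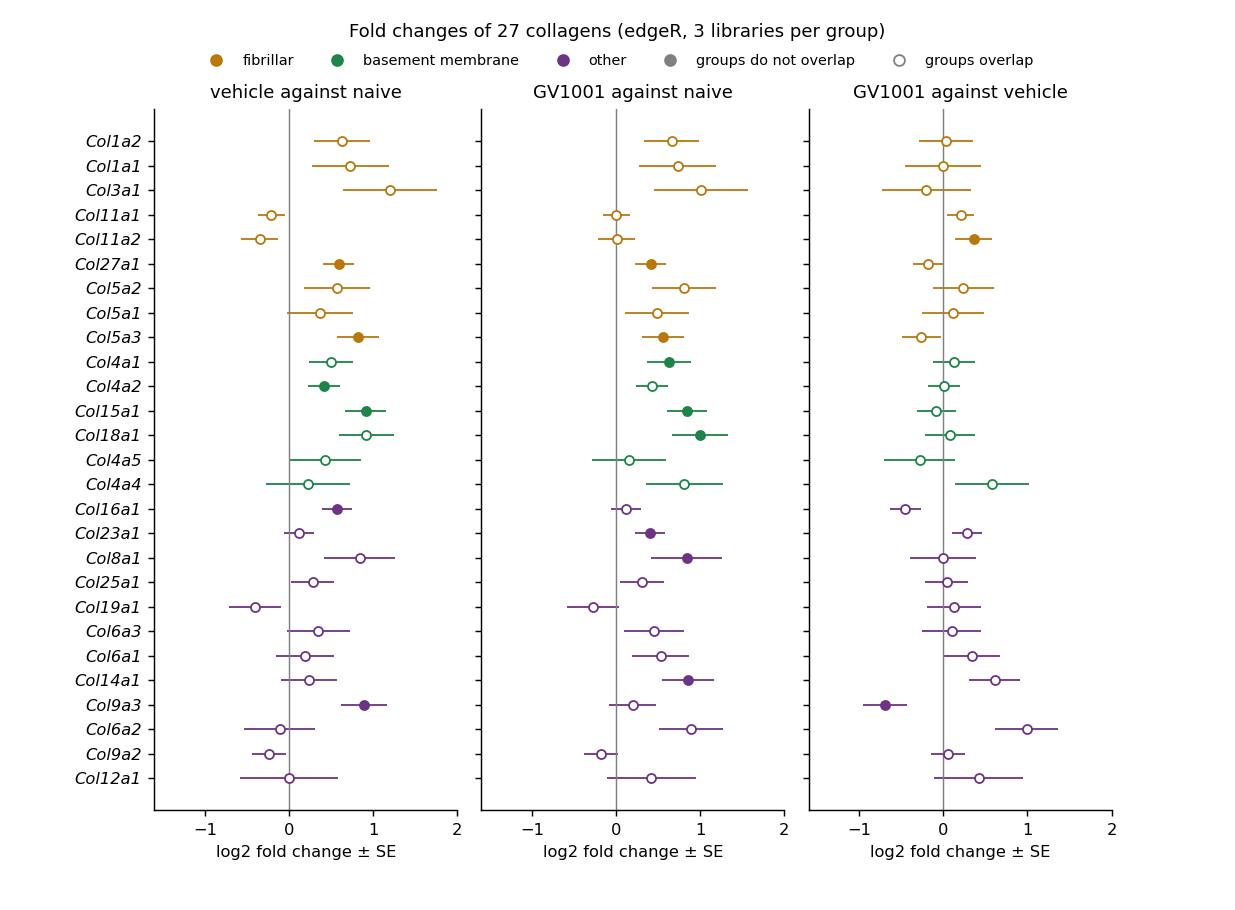
Log2 fold changes (points) with SE (bars) of the 27 collagens in the 3 comparisons, from edgeR with 3 libraries per group; filled points mark collagens whose groups do not overlap. Most points lie right of 0 against naive, and they lie around 0 in GV1001 against vehicle.

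GV1001-treated EAE cord had a higher mean than naive cord for most collagens, and no collagen passed the test. In GV1001 against naive, 0 of 36 collagens passed an adjusted p of 0.05 in edgeR, as did 0% of all tested genes, and the smallest adjusted p of a collagen was 0.64. The GV1001 libraries lay above all naive libraries for 10 of 36 collagens, or 27.8%, against 10.2% of all tested genes, and below them for 0, against 6.7%. The 10 were Col4a1, Col5a3, Col8a1, Col14a1, Col15a1, Col18a1, Col20a1, Col23a1, Col24a1 and Col27a1. Col20a1 and Col24a1 were under 5 CPM in every group mean. For Col4a1, Col5a3, Col8a1, Col14a1, Col20a1, Col23a1, Col24a1 and Col27a1 the gap was within counting error. Their lowest GV1001 values were 53.5, 9.07, 18.9, 11.5, 2.11, 34.4, 3.08 and 21.3 CPM. Their highest naive values were 48, 8.73, 16.4, 8.3, 1.8, 33.3, 2.93 and 20.9 CPM. Values above 0 on the log2 scale were found for 31 of 36, or 86.1%, against 50.5% of all tested genes. By class the 10 were 3 of 11 fibrillar, 3 of 7 basement membrane and 4 of 18 other collagens. At an unadjusted p under 0.05 there were 8 of 36 collagens, or 22.2%, against 7.3% of all tested genes. All 8 were higher, the direction of 4.35% of all tested genes, and 0 were lower, against 2.95%. This count of 8 was not stable. Leaving out single libraries, it ranged from 1, without naive replicate 1, to 14, without vehicle replicate 2. With the replicate number as a block it was 5. The 3 smallest p-values were those of Col15a1 (log2 fold change 0.84 ± 0.24), Col18a1 (1.00 ± 0.33) and Col14a1 (0.85 ± 0.31). The median log2 fold change was 0.44 over the 36 collagens against 0.00 over all tested genes, and 0.49 for fibrillar, 0.63 for basement membrane and 0.36 for other collagens. Vehicle against naive and GV1001 against naive share the naive libraries, so their values stand side by side and do not bear each other out. Muscle and Schwann cell markers were also higher in these libraries. Schwann cell markers summed to 3100, 3350 and 4280 CPM in GV1001 against 2290, 1900 and 2350 CPM in naive libraries. Muscle markers summed to 5100, 1380 and 493 CPM against 39.2, 43.7 and 285 CPM. Neither sum overlapped between GV1001 and naive libraries, so the covariate fit cannot tell these markers apart from the group. In that fit 0 collagens passed, and the medians were 1.28 for fibrillar and 1.1 for basement membrane collagens. The part of these markers was not tested.

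Between GV1001 and vehicle, both in EAE, the main collagens differed little on average. No collagen passed an adjusted p of 0.05 in edgeR, as with 0% of all tested genes, and 0 passed in DESeq2 or limma-voom. The log2 fold change was 0.00 ± 0.45 for Col1a1, 0.03 ± 0.32 for Col1a2, −0.20 ± 0.53 for Col3a1, 0.13 ± 0.25 for Col4a1, 0.01 ± 0.19 for Col4a2 and −0.08 ± 0.23 for Col15a1. The standard errors leave room for differences of either sign, and leaving out single libraries turned the sign of each of these 6. With the muscle and Schwann cell scores as covariates Col1a1 was at 1.39 and Col3a1 at 1.47, and neither passed. The median was 0.07 over 36 collagens against −0.01 over all tested genes. Without vehicle replicate 2 it was −0.11, and without vehicle replicate 3 it was 0.27. At an unadjusted p under 0.05 there were 3 of 36 collagens, or 8.33%, against 9.08% of all tested genes, which is near the background. Of these, 1 was higher, against 4.57% of all tested genes, and 2 were lower, against 4.51%. On the log2 scale 22 of 36 collagens were above 0, or 61.1%, against 48.6% of all tested genes.

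Those 3 were all among the other collagens. Col9a3 was lower with GV1001, with a log2 fold change of −0.69 ± 0.26, and its GV1001 libraries, at 8.29 to 10 CPM, lay below all vehicle libraries, at 11.1 to 19.3 CPM. Col16a1 was at −0.45 ± 0.18 with overlap between the groups. Col6a2 was at 0.99 ± 0.38, with 15.7 and 17.6 CPM in GV1001 replicates 1 and 2 and 8.91 CPM in replicate 3, which overlapped the vehicle range of 4.76 to 10.3 CPM. The adjusted p was 0.528, 0.531 and 0.53 in edgeR. Skeletal muscle markers were highest in the same GV1001 replicates 1 and 2, at 5100 and 1380 CPM. With muscle and Schwann cell scores as covariates Col6a2 was at 1.35, with an adjusted p of 0.774 in edgeR. The part of muscle in the Col6a2 values was not tested. GV1001 libraries lay above all vehicle libraries for 4 of 36 collagens, or 11.1%, against 5.44% of all tested genes, and below for 2, or 5.56%, against 5.03%. The 4 were Col8a2, Col11a2, Col22a1 and Col24a1, and only Col11a2 reached 5 CPM in a group mean, at 26.3, 30.1 and 29 against 23.9, 25.5 and 17.4 CPM (0.36 ± 0.22). For these 4 the gap was within counting error, as it was for Col9a3. The nearest values were 3.21 against 2.61 CPM for Col8a2, 2.08 against 1.98 CPM for Col22a1 and 3.08 against 2.86 CPM for Col24a1.

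Within each group, naive included, the same libraries tended to be high for many collagens. Among the 27 collagens at 5 CPM or more, vehicle replicate 3 was the highest of its group for 20 and GV1001 replicate 2 for 19, and GV1001 replicate 1 was the lowest of its group for 17. In naive cord, replicate 2 was the highest for 16 and replicate 1 the lowest for 17. These counts were not made over all tested genes. Vehicle replicates 1 and 3 and GV1001 replicate 2 lay above the other 3 EAE libraries for 11 of the 27, namely Col1a1, Col3a1, Col4a1, Col5a2, Col5a3, Col6a3, Col8a1, Col15a1, Col16a1, Col18a1 and Col27a1. Over the tested collagens this was 11 of 36, or 30.6%, against 11.7% of all tested genes. By class it was 5 of 9 fibrillar, 3 of 6 basement membrane and 3 of 12 other collagens. These 3 libraries were picked as the EAE libraries with the highest sums of the 12 microglia and macrophage markers, 6840, 2280 and 2190 CPM. The other EAE libraries were at 398 to 864 CPM. Collagens were counted after that choice, so the match with these markers was fixed by it. The 12 reactive astrocyte markers, of whose sum Gfap made up 58.3%, were ordered likewise, at 3500, 2410 and 2140 CPM in these 3 and 765 to 1310 CPM in the other EAE libraries. Fibroblast markers were high in 2 of the 3. All 20 fibroblast markers summed to 1120, 1280 and 2380 CPM in vehicle, 2190, 2840 and 2660 CPM in GV1001 and 1270, 2100 and 1460 CPM in naive libraries. Ptgds, which other cord cells also make, made up 61.3% of that list and was set aside after its share was seen. Without it, 19 fibroblast markers summed to 546, 504 and 1190 CPM in vehicle and 787, 1120 and 991 CPM in GV1001 libraries, against 422, 679 and 464 CPM in naive libraries. Of the 19 tested fibroblast markers, 10 had a log2 fold change above 0 in vehicle against naive, where 49.5% of all tested genes did. Their median was 0.09. Summed Schwann cell markers were lowest in vehicle replicate 1, at 1230 CPM, where fibrillar collagens summed to 698 CPM. Bone and cartilage markers summed to 26.9 to 52.3 CPM and tendon markers to 42 to 77.9 CPM, with Bglap2 and Kera at 0 in all libraries. Pericyte markers were at 268 to 360 CPM, vascular smooth muscle markers at 156 to 317 CPM and endothelial markers at 590 to 734 CPM. The part of these cell types in the collagen values was not tested.

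**Figure D4:**
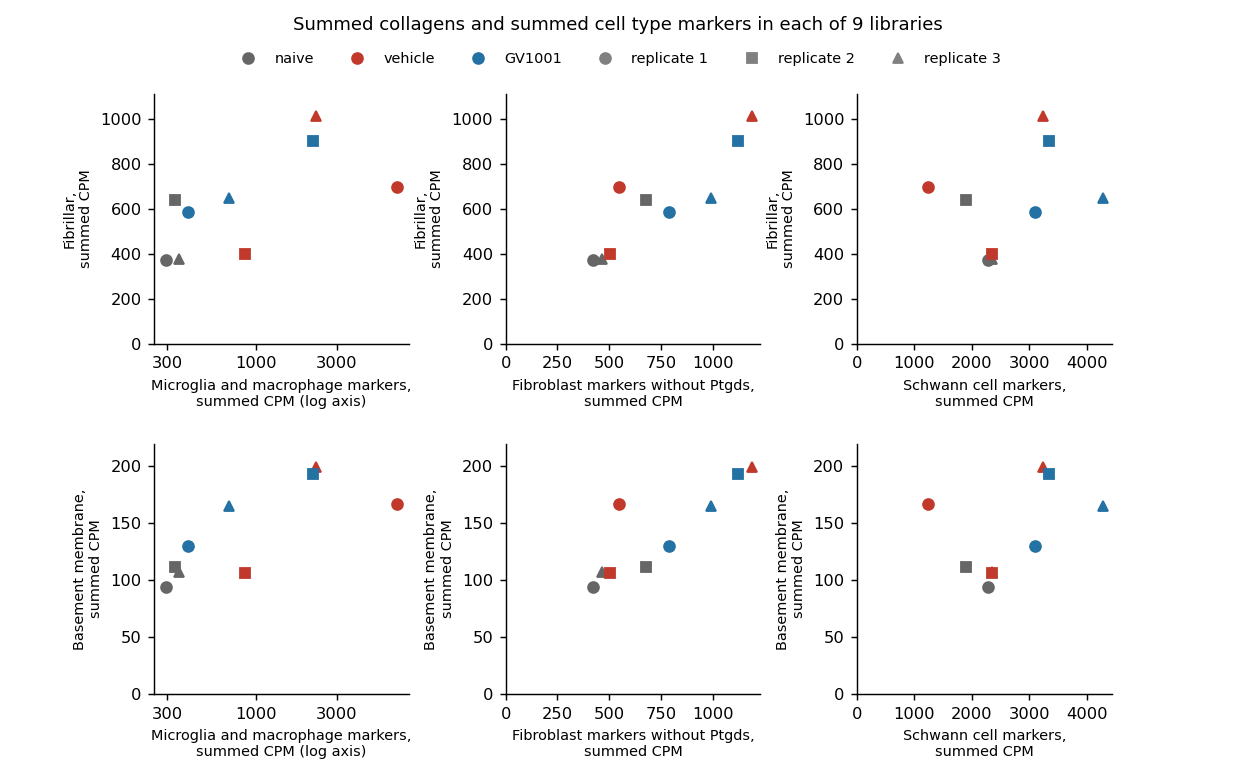
Summed CPM of fibrillar (top) and basement membrane (bottom) collagens against summed CPM of microglia and macrophage (log axis), fibroblast (without Ptgds) and Schwann cell markers, 1 point per library. Vehicle replicate 3 and GV1001 replicate 2 are high on collagens and on both microglial and fibroblast markers, while vehicle replicate 1, at 6840 CPM of microglial markers, has 546 CPM of fibroblast markers.

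Genes that make, bind and break down collagen were read from the same fit, and 0 members of the 6 lists passed an adjusted p of 0.05 in edgeR in any of the 3 comparisons. As with the collagens, this depended on vehicle replicate 2, and other settings also changed it. Without it, 4 of 29 folding and modifying enzymes, 2 of 9 receptors and 3 of 12 breakdown and uptake genes passed in vehicle against naive. So did 1 of 14 basement membrane partners, 6 of 23 fibrous matrix partners and 6 of 18 TGF-beta signalling genes. Of all 15848 genes tested there, 1652 passed, and 7.46% passed as higher. In the same order of lists, DESeq2 called 2, 1, 1, 0, 2 and 5 in this comparison. It called 1104 of 17212 genes with an adjusted p, and 4.84% as higher. The fit with muscle and Schwann cell scores called 3, 1, 2, 0, 3 and 5, beside 878 of 15351 tested genes, and 4.75% as higher. Without the filter edgeR called 1 of 11 receptors, 1 of 13 breakdown and uptake genes and 3 of 19 TGF-beta signalling genes, beside 543 genes in all. Without GV1001 replicate 1 it called 1 of 18 TGF-beta signalling genes, beside 81 genes in all. Without vehicle replicate 3 the list medians in vehicle against naive were 0.30, −0.01, 0.22, −0.10, 0.17 and 0.32. They were taken over the 29, 9, 13, 14, 23 and 18 genes tested in that fit. Of 31 folding and modifying enzymes, 29 were tested, with a median log2 fold change of 0.41 in vehicle and 0.26 in GV1001 against naive. In vehicle against naive 24 of 29 were above 0, against 49.5% of all tested genes. Ppib, an isomerase that helps fold procollagen, was at 52.2, 57.1 and 52.1 CPM in naive, 99.5, 63.1 and 82.8 CPM in vehicle, and 70.5, 73.5 and 72.7 CPM in GV1001 libraries. Every EAE library was above every naive library for Ppib (0.58 ± 0.16 in vehicle against naive, adjusted p = 0.0898 in edgeR). Crtap, which works with Ppib in prolyl 3-hydroxylation, was at 1.59 and 4.47 CPM on average in naive and vehicle libraries (1.44 ± 0.39). Mia3, which loads collagen into transport carriers and was the most abundant member, was at −0.07 ± 0.10.

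The 8 tested collagen receptors, of 11, had a median of 0.20 in vehicle against naive. Lair1, an inhibitory collagen receptor of immune cells, was at 9.27, 10.4 and 7.94 CPM in naive, 77.2, 14.5 and 35.4 CPM in vehicle, and 9.64, 27 and 11.7 CPM in GV1001 libraries (2.19 ± 0.58, adjusted p = 0.0836 in edgeR). Ddr1, a receptor tyrosine kinase for collagen, was at 0.07 ± 0.11 and the integrin chain Itgb1 at 0.49 ± 0.23. The 12 tested genes of collagen breakdown and uptake, of 13, had a median of 0.54. Without naive replicate 2 all 13 were tested, and their median was 0.98. All 13 were also tested without GV1001 replicate 1 and without the filter, with medians of 0.82 and 0.81. Timp1, an inhibitor of the matrix metalloproteinases that cut collagen, was at 1.07, 0.345 and 0.902 CPM in naive, 128, 7.24 and 21.3 CPM in vehicle, and 1.89, 34.6 and 6.48 CPM in GV1001 libraries (6.05 ± 1.53, adjusted p = 0.078 in edgeR, on 2 to 6 counts in each naive library). The collagenase Mmp8 was at 0.91 ± 0.36 and Timp2 at −0.08 ± 0.12.

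The 14 tested basement membrane partners, of 18, had a median of 0.19 in vehicle against naive, with the collagen-binding protein Sparc at 0.36 ± 0.16 and the vessel laminin chain Lama4 at 0.68 ± 0.32. The 22 tested fibrous matrix partners, of 23, had a median of 0.43 in vehicle and 0.63 in GV1001 against naive. In GV1001 against naive 21 of 22 were above 0, against 50.5% of all tested genes. Dcn, a proteoglycan that binds type I fibres and marks fibroblasts, was at 144, 212 and 183 CPM in naive, 221, 247 and 549 CPM in vehicle, and 329, 543 and 499 CPM in GV1001 libraries. No EAE library overlapped the naive libraries for Dcn, with log2 fold changes of 0.87 ± 0.31 and 1.32 ± 0.31 and an adjusted p of 0.151 and 0.593 in edgeR. Tnc, a glycoprotein of injured tissue, was at 1.89 ± 0.63 in vehicle against naive and −1.24 ± 0.58 in GV1001 against vehicle, and Thbs2 at 1.43 ± 0.45 and −0.86 ± 0.43. Of 19 genes of TGF-beta signalling, a main inducer of collagen genes, 18 were tested, with a median of 0.29 in vehicle against naive. Tgfbr2, a receptor chain, was at 14.8, 12.8 and 15 CPM in naive, 58.2, 30.7 and 53.7 CPM in vehicle, and 24.9, 43.7 and 26.4 CPM in GV1001 libraries (1.72 ± 0.29, adjusted p = 0.0629 in edgeR). Tgif1, a repressor of this pathway, was at 2.41 ± 0.56 and the transducer Smad4 at 0.25 ± 0.11.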

How the data were processed

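Gene expression was measured in 9 spinal cord libraries made with a QuantSeq 3′ mRNA kit, per the labels' protocols. RNA was extracted with TRIzol or a Maxwell kit, with no statement of which sample had which. The authors deposited whole-number counts for each gene symbol, made with FastQC, STAR, HTSeq and build GRCm39, per the submitters' processing notes, which give no versions. Strand setting, annotation release and use of molecular identifiers are not given in the sources used here. The 9 single-library files equalled the table. Groups were taken from the sample titles.

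Genes were filtered with filterByExpr (minimum count 10) and normalised by TMM. A single edgeR (4.0.16) quasi-likelihood fit held all 9 libraries, with p-values adjusted by Benjamini-Hochberg over 15351 genes with a threshold of 0.05. Standard errors come from the F statistic. DESeq2 1.42.0 and limma-voom (limma 3.58.1) ran beside it in R 4.3.3, and figures were drawn with matplotlib 3.10.9. Collagens at 5 CPM or more in a group mean are given in every library, with the 3 smallest p per comparison, and pathway lists by their most abundant member and the 2 smallest p. Depth limits low genes: floors of 3 counts cover counting error only. Members and lists were chosen with earlier results of these data known. Alternatives covered tool, normalisation, filter, groups in the fit, a replicate block, covariates and leaving out libraries. Protein sequences were not used here.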

Additional observations from a re-analysis of the deposited data

How the results depend on the processing

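The count of collagens called in vehicle against naive was 0, 1 with DESeq2, 1 with muscle and Schwann cell scores as covariates and 0 to 7 when single libraries were left out (7 without vehicle replicate 2). It was 9 without GV1001 replicate 1 and vehicle replicate 2 together, a setting chosen after seeing the data. In that setting 8% of all tested genes passed as higher. The other comparisons gave 0 collagens under every alternative. The count of all genes called in vehicle against naive was 3, and 1104 with DESeq2, 0 with limma-voom, 20 with library totals alone, 543 without the filter, 878 with the covariates and 0 to 1652 when single libraries were left out. Without GV1001 replicate 1 and vehicle replicate 2 together it was 1952. Leaving out single libraries, the median log2 fold change of the tested collagens ranged from 0.19 to 0.55 in vehicle against naive, from −0.11 to 0.27 in GV1001 against vehicle, and from 0.32 to 0.67 in GV1001 against naive, where 0.67 was without naive replicate 2. With the covariates the fibrillar median was 0.62 in GV1001 against vehicle and 1.28 in GV1001 against naive, where the basement membrane median was 1.1. The cause was not tested.

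Signs turned mainly in GV1001 against vehicle, where fold changes were near 0. With the covariates Col1a1 was at 1.39, Col3a1 at 1.47, Col8a1 at 0.84, Col15a1 at 0.15 and Col16a1 at 0.02. In limma-voom Col1a1 was at 0.16, Col4a2 at −0.01 and Col8a1 at 0.05. Without the filter Col1a1 was at 0.00 and Col8a1 at 0.01, and in DESeq2 Col8a1 was at 0.00. Leaving out single libraries gave −0.46 to 0.24 for Col8a1, −0.41 to 0.34 for Col1a1, −0.27 to 0.46 for Col1a2, −0.14 to 0.31 for Col4a1, −0.14 to 0.19 for Col4a2, −0.31 to 0.21 for Col15a1, −0.68 to 0.26 for Col3a1, and −0.10 to 0.24 for Col23a1 in vehicle against naive and −0.03 to 0.25 for Col16a1 in GV1001 against naive. Without GV1001 replicate 1 and vehicle replicate 2 together Col1a2 was at −0.13.

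Nothing in the labels ties samples by replicate number, and 2 of 9 same-number pairs correlated above 0.1. The correlations largest in size were negative, at −0.501 between vehicle and GV1001 replicate 2 and −0.465 between vehicle and GV1001 replicate 1. With the replicate number as a block, 0 collagens passed in each comparison, the 3 genes called in vehicle against naive were no longer called, and Col4a2 was at −0.01 in GV1001 against vehicle.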
